A study of Rattus norvegicus with 15 samples.

Results

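Whole blood of rats sampled 6 h after modelling of deep venous thrombosis was compared with whole blood of sham rats, feature by feature. A feature is an annotated gene or a gene model assembled from the reads. The comparison covers every feature with a normalised read count of at least 10 in 3 or more of the 6 libraries concerned, which are 3 sham and 3 at 6 h. This gave 10025 of 17599 features, of which 7989 were annotated and 2036 assembled.

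All animals were male Sprague-Dawley rats, an outbred stock, 6 to 8 weeks old and of 250 to 300 g body weight per the labels' protocols. The sham group is placed at 0 h by the labels and carries the run label A&B, and the 6 h group carries the run label C. Further groups of 3 were sampled 1 h and 72 h (run label A&B) and 12 h after modelling, the latter with run label C. The sources used here do not say how the clot was made, what the sham procedure was or at what time of day blood was drawn. Run label and time coincide in the comparison of 6 h with sham, so the contributions of these cannot be told apart. Replicates are numbered but not tied to animals in the labels, and the p-values describe only the spread between libraries, which may be technical.

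In deep venous thrombosis a clot forms in a deep vein, and neutrophils, monocytes, platelets and the coagulation system take part in its growth. Whole blood RNA comes mostly from young red cells, which carry large amounts of globin messages, and from white cells and platelets, and its make-up shifts when neutrophils are released from the marrow or lymphocytes leave the circulation. In a bulk measurement of this kind, fewer cells of a type and less RNA per cell cannot be told apart. The IDs of the features are not paired with gene symbols in the sources used here, and 0 of them matched the reference table. The labelled tissue could therefore not be checked against blood cell markers, no sequence could be assigned to a feature, and features are described by level, direction, class and time.

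Reads recovered from the values came to 31.0 to 37.5 M (mega-reads) per sham library and 33.7 to 43.3 M per 6 h library. The 5 most abundant features, all assembled models, held 83.9 to 84.9% of the reads in sham and 80.6 to 84.5% at 6 h. The reads left for all other features came to 5.20 M ± 0.393 in sham and 6.60 M ± 0.934 at 6 h (SD, n = 3). This difference had an exact two-sided permutation p of 0.1, the smallest that 3 against 3 libraries can give.

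The blood at 6 h differed from sham in 54 features past an adjusted p of 0.05 (limma, Benjamini-Hochberg over the 10025 features), 38 higher and 16 lower. These features are referred to as called. They make up 0.539% of the features tested, with 0.379% called higher and 0.160% called lower. The rises had a median log2 difference of 2.71 (range 1.33 to 4.75) and the falls a median of -2.62 (range -6.22 to -1.50), against a median of -0.04 over all features tested. All differences were taken after adding a pseudocount of 1 to the values, and low features therefore appear to change less than they do. Of the 38 rises 31 were over 4-fold and 13 over 8-fold on this scale, and of the 16 falls 12 were over 4-fold and 6 over 8-fold.

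**Figure D1:**
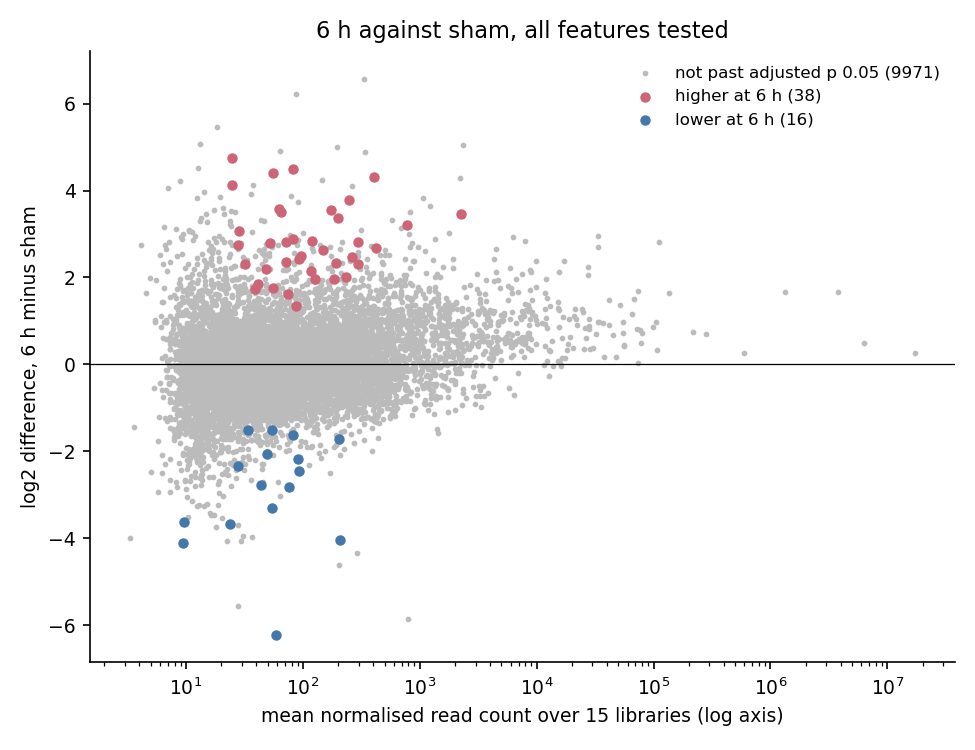
Log2 difference of 6 h from sham (vertical axis) against mean normalised read count over 15 libraries (horizontal log axis) for each of the 10025 features tested. Coloured points are the 38 called rises and 16 called falls, and grey points with differences as large lie around them, because the spread between libraries entered the test.

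Most large differences did not pass. There were 258 features over 4-fold higher at 6 h and 142 over 4-fold lower, of which 31 and 12 were called. At an unadjusted p under 0.05 there were 1809 features (978 higher, 831 lower). Complete separation, in which all 3 libraries at 6 h lay beyond all 3 sham libraries, held for 2948 features, or 29.4%, with 1447 higher and 1501 lower. All 54 called features were among these.

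The 38 features that rose were at low to moderate read counts in sham. Their sham means ran from 0.781 to 394.7 with a median of 28.4, and 6 of them had a sham mean under 10. At 6 h the means ran from 42.7 to 5801 with a median of 185. The 16 features that fell had sham means of 15.9 to 311 with a median of 85.8 and 6 h means of 0.238 to 83.1 with a median of 14.1. In 4 of the 16 at least 1 library at 6 h had no reads. The filter let in 98 features only through the 6 h libraries and 70 only through the sham libraries, and these had to differ in level. Of the 98, 4 were called higher, against 0.379% of all features tested, and of the 70, 3 were called lower, against 0.160%. The separation and p-values of features let in this way are no support for a difference.

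By the rule for named features, the 2 largest called rises and the 2 largest called falls are given by ID. ENSRNOG00000046973, an annotated gene, had normalised read counts of 0, 2.34 and 0 in sham and 21.9, 63.2 and 42.9 at 6 h. It met the filter only through the 6 h libraries, so that the groups had to lie apart. The log2 difference was 4.75 (SE 1.00, limma adjusted p = 0.0440). Sham held 3 reads in all and 6 h held 132, a ratio of 55.9 with an exact 95% counting interval of 18.7 to 275. This interval, like those below, covers counting error only and not the spread between samples. The gene had 0, 31.0 and 13.2 at 1 h, 26.9, 72.0 and 18.3 at 12 h and 21.1, 20.4 and 35.8 at 72 h. Every library at 6 h, 12 h and 72 h thus lay above every sham library. With a pseudocount of 5 the log2 difference was 2.97.

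MSTRG.7821, an assembled model, had normalised read counts of 6.98, 7.03 and 5.17 in sham and 256, 207 and 85.1 at 6 h. This model too met the filter only through the 6 h libraries, which fixed the separation of the groups. The sham libraries lay close together, and limma gave a log2 difference of 4.50 with an SE of 0.70 (adjusted p = 0.0252). In reads this was 24 against 489, a ratio of 25.9 (exact 95% counting interval 17.2 to 40.8). The counts were 17.2, 24.2 and 22.5 at 1 h, already above sham in all 3 libraries, then 193, 190 and 35.2 at 12 h and 79.0, 13.4 and 100.5 at 72 h.

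MSTRG.1871, an assembled model, had normalised read counts of 213, 252 and 90.5 in sham and 10.97, 0 and 0 at 6 h. The groups did not overlap, and the log2 difference was -6.22 (SE 1.28, limma adjusted p = 0.0399). In reads this was 677 against 8, so that sham was 66.6 times as high (exact 95% counting interval 33.6 to 155). The model was also low at 1 h, with 27.8, 4.85 and 0, and at 12 h, with 33.3, 0 and 3.37, and it stood at 63.2, 131 and 57.8 at 72 h.

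MSTRG.4688, an assembled model that met the filter only through the sham libraries and so had to be lower at 6 h, had normalised read counts of 18.9, 18.7 and 21.98 in sham and 0, 0 and 0.715 at 6 h. A single read was found over the 3 libraries at 6 h against 77 in sham, so that sham was 60.6 times as high with a wide exact 95% counting interval of 10.6 to 2423. The log2 difference was -4.12 (SE 0.82, limma adjusted p = 0.0375), and -2.25 with a pseudocount of 5. The counts were 7.94, 9.70 and 12.2 at 1 h, 10.2, 3.43 and 23.9 at 12 h and 7.90, 1.91 and 4.13 at 72 h. All 12 other libraries lay above all 3 at 6 h.

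**Figure D2:**
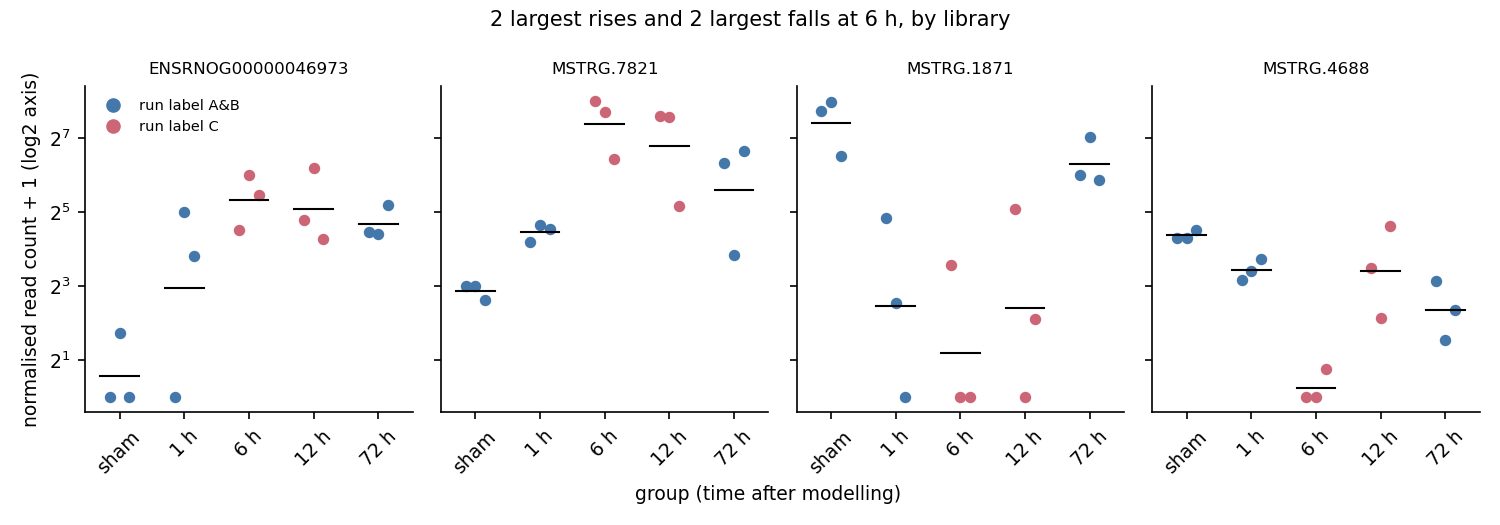
Normalised read count + 1 (vertical log2 axis) of the 4 named features in each of the 15 libraries, by group. Points are libraries coloured by run label and bars are means on the log2 scale. For both rises all libraries at 12 h and 72 h lie above those of sham, MSTRG.1871 is low from 1 h to 12 h, and MSTRG.4688 is lowest at 6 h.

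Some other called features were more abundant than the 4 named ones. The called rise with the highest mean, an annotated gene, had 513, 399 and 272 in sham and 12208, 3302 and 1892 at 6 h, for which limma gave a log2 difference of 3.47 with an SE of 0.73 (adjusted p = 0.0438). Its 6 h libraries spread widely, and the highest of them, replicate 1, lay far above the other two. The called fall with the highest mean, also annotated, had 330, 315 and 288 in sham and 19.2, 20.3 and 15.02 at 6 h, for which limma gave -4.03 with an SE of 0.77 (adjusted p = 0.0368). Replicates within each of these groups lay close together. The same gene had 330, 30.1 and 40.4 at 1 h and 326, 36.0 and 237 at 12 h, so that libraries of these times fell into high and low values, while all 3 at 72 h were high with 371, 422 and 362.

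The lowest p among the rises belonged to an assembled model with 2.99, 3.12 and 6.47 in sham and 174, 92.6 and 71.5 at 6 h (log2 difference 4.41, SE 0.62, limma adjusted p = 0.0143), and it also met the filter only through the 6 h libraries. The lowest p among the falls belonged to an annotated gene with 83.7, 53.9 and 56.9 in sham and 6.86, 7.90 and 10.7 at 6 h (log2 difference -2.79, SE 0.40, limma adjusted p = 0.0143). This gene was lower at 6 h than in any of the 12 other libraries, with 50.3, 74.7 and 91.1 at 1 h, 16.6, 18.8 and 43.0 at 12 h and 42.1, 59.9 and 45.4 at 72 h. At the small end, the weakest called rise went from 53.8, 53.9 and 53.7 to 121, 167 and 128 (log2 difference 1.33, SE 0.29, limma adjusted p = 0.0490), and the sham libraries were nearly equal.

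The called features were next set against the other times. All times share the sham libraries, so their differences from sham are not independent, and levels are given. For the 38 rises the median of the group means was 28.4 in sham, 47.5 (1 h), 185 (6 h), 124 (12 h) and 64.1 (72 h). For the 16 falls the sequence was 85.8 in sham, 72.7 (1 h), 14.1 (6 h), 36.2 (12 h) and 48.6 (72 h). In both directions the 12 h median lay nearest to that of 6 h, but the 12 h libraries were not alike. Median log2 distances from the sham mean in 12 h replicates 1, 2 and 3 were 2.41, 2.79 and 1.07 over the rises. Over the falls they were -1.17, -1.85 and -0.609. The 72 h replicates 1, 2 and 3 had 1.53, 0.772 and 1.79 over the rises and -0.511, -0.317 and -0.675 over the falls. The 12 h group is both the next time sampled and the other group with run label C, and these cannot be told apart here.

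The 1 h and 72 h libraries entered the call only through the shared estimate of the spread, but the 6 h values that made the call are used again here. Called features therefore exceed the share of all features by their choice, and the share among the 1447 features separated higher and the 1501 separated lower from sham is given too. For 19 of the 38 rises all 3 libraries at 6 h lay above all 6 libraries of 1 h and 72 h, against 3.77% of all features tested and 16.8% of those separated higher. For 12 of the 16 falls they lay below all 6, against 3.34% and, among those separated lower, 18.4%. The libraries at 12 h lay beyond these 6 for 5 of the 38 rises (2.28% of all features tested, 4.63% of those separated) and 4 of the 16 falls (2.14% and 6.40%).

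Run label moved with the comparison, and its values are given directly. All 6 libraries of run label C lay above all 9 of run label A&B for 5 of the 38 rises and below them for 2 of the 16 falls, against 0.449% of all features tested in each direction. Among the features whose 6 h libraries were already separated from sham, a part of the same condition, the shares were 3.11% higher and 3.00% lower. The 6 h libraries lay above all 3 libraries at 12 h, within run label C, for 5 of the 38 rises (2.93% of all features tested, 6.36% of those separated from sham) and below them for 9 of the 16 falls (2.48% and 7.86%). They lay above all 12 other libraries for 4 rises (0.389% of all features tested, 2.70% of those separated) and below them for 8 falls (0.509% and 3.40%). The part of run label in these differences was not tested, since each group carries a single label.

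**Figure D3:**
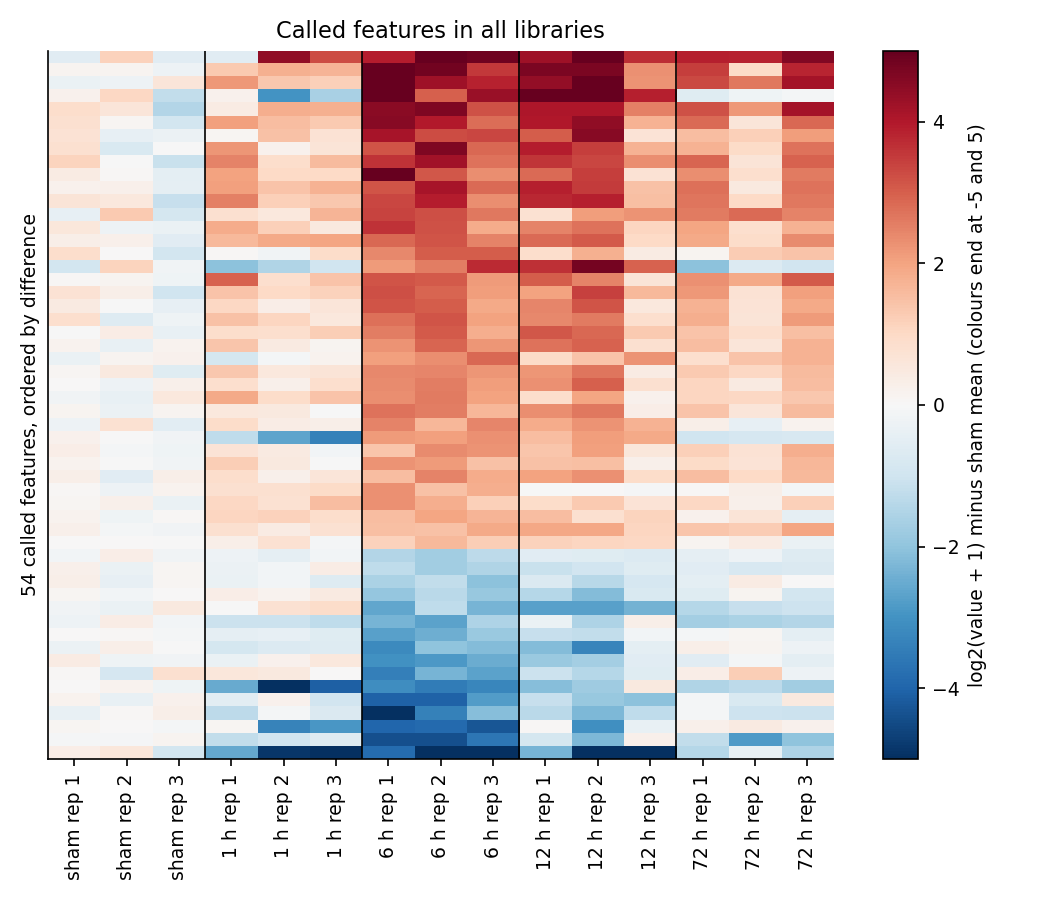
Log2(value + 1) minus the sham mean for the 54 called features (rows, ordered by their difference) in the 15 libraries (columns, grouped by time). Red is above and blue below the sham mean. The 3 columns at 6 h are uniform in direction. By the median over the rises 12 h replicates 1 and 2 resemble them, at 2.41 and 2.79. Over the falls these replicates are paler, with medians of -1.17 and -1.85 against -3.08, -2.56 and -2.25 at 6 h. The 12 h replicate 3 and most columns at 1 h and 72 h are paler in both directions.

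The libraries at 6 h were not equal among themselves. Over the 38 rises the median log2 distance from the sham mean was 2.73, 3.00 and 2.28 in replicates 1, 2 and 3, and over the 16 falls it was -3.08, -2.56 and -2.25. Replicate 3 was the lowest of the 3 for 24 of the 38 rises. The authors' values are reads divided by a factor for each library, and this factor was 0.729, 0.886 and 1.40 in 6 h replicates 1, 2 and 3 and 1.00, 1.28 and 1.55 in sham replicates 1, 2 and 3. The log2 factor was 0.33 ± 0.31 in sham and -0.05 ± 0.48 at 6 h (SD, n = 3, exact two-sided permutation p = 0.3). The median SD of log2 values within a group was 0.35 in sham and 0.49 at 6 h, beside 0.41, 0.70 and 0.46 in the groups of 1 h, 12 h and 72 h. Within the comparison itself, libraries of the same group correlated across features with r of 0.920 to 0.930 in sham and 0.881 to 0.917 at 6 h, and features are not independent replicates. The 6 h replicate 3 correlated with sham replicates 1, 2 and 3 by 0.903, 0.895 and 0.890. With 6 h replicates 1 and 2 it correlated by 0.881 and 0.917. By this correlation it lay nearer to each sham library than to 6 h replicate 1, but nearest to 6 h replicate 2. Chi-square per degree of freedom on the recovered reads, where lower is nearer, ordered the libraries otherwise. It was 68.2, 270 and 193 to sham replicates 1, 2 and 3 and 94.5 and 73.3 to 6 h replicates 1 and 2.

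Differences shifted with read abundance and with the scaling. Features were divided into 4 bands of equal size by their mean over all libraries. In the upper band, with 2507 features, the median log2 difference was 0.28, and in the other bands it was -0.13, -0.13 and -0.11. When every library was instead scaled to the same total of reads outside the 5 dominant features, the median of all features lay at -0.73 and that of the upper band at -0.43, so the direction of the upper band holds only relative to the other features. After adjustment for the log2 library factor the upper band had a median of 0.14. These bands are by reads per feature and not per length, so they do not rank genes by level.

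Assembled models leaned higher than annotated genes. Their median log2 difference was 0.20 against -0.09, and 20.9% of them separated completely as higher and 13.3% as lower, against 12.8% and 15.4% of annotated genes. Assembled models also held more reads, with a median of the means of 139 against 45.8. Within each band of abundance the median of the assembled models lay above that of the annotated genes, at 0.41 against 0.17 in the upper band and at -0.04 against -0.14 in the lowest. On the scale of equal totals these medians move with the shift given above. Of the called features 11 of the 38 rises (28.9%) and 2 of the 16 falls (12.5%) were assembled. Called in either direction were 0.64% of assembled models and 0.51% of annotated genes, against 0.539% of all features tested. The difference between the classes was not tested.

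The call was spread unevenly over abundance. Of the 2506 features in the lowest band none was called higher and 3 were called lower. The middle bands, each of 2506 features, held 9 and 16 called rises and 4 and 7 called falls. The upper band, of 2507 features, held 13 called rises and 2 called falls. Over all features tested 0.379% were called higher and 0.160% lower. The median SE of a difference was 0.74 in the lowest band, 0.48 and 0.37 in the middle ones and 0.42 in the upper one.

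The shares of reads held by the 5 dominant features are given per library. The feature ranked 1 took 51.6, 58.6 and 53.5% of reads in sham and 45.8, 43.4 and 45.2% at 6 h. The feature ranked 3 took 9.97, 4.12 and 5.11% in sham and 12.5, 14.6 and 11.6% at 6 h. The feature ranked 4 took 3.33, 1.74 and 1.50% in sham and 3.85, 5.97 and 3.96% at 6 h. For each of these the groups did not overlap, with an exact two-sided permutation p of 0.1 (adjusted 0.167 over 5 features), the smallest this design allows before adjustment. Ranks 2 and 5 overlapped between the groups (exact permutation p of 0.7 and 0.3). In normalised read counts none of the 5 was called (limma adjusted p of 0.206 to 0.888). Their log2 differences on that scale ran from 0.26 (rank 1, SE 0.75) to 1.68 (rank 4, SE 0.68). The lower share of rank 1 at 6 h thus did not appear as a lower normalised read count, though the SE leaves the direction on that scale unsettled. Shares of 1 library sum to a whole, so a lower share of rank 1 and higher shares of ranks 3 and 4 are not separate measurements.

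**Figure D4:**
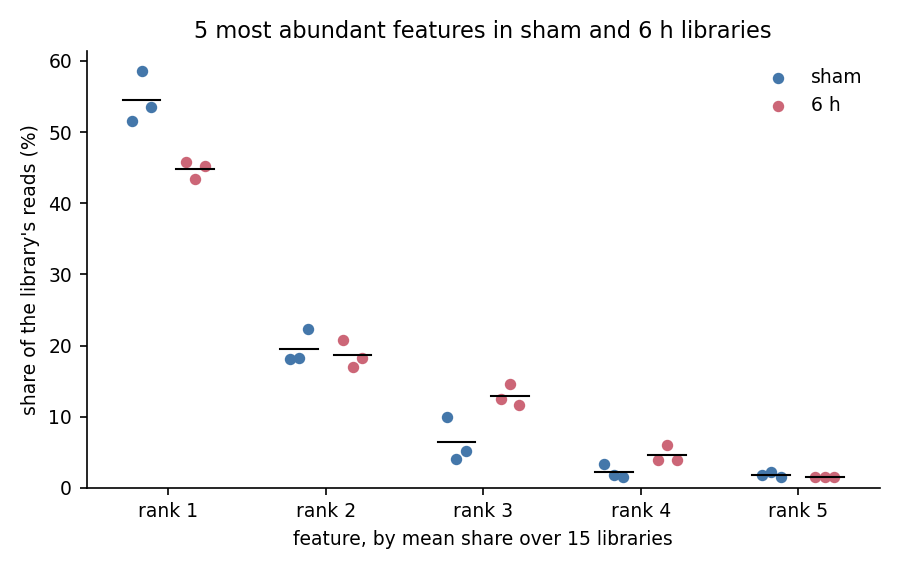
Share of each library's reads (vertical axis, %) taken by the 5 most abundant features in the 3 sham and 3 6 h libraries. Points are libraries and bars are means. Ranks 1, 3 and 4 do not overlap between the groups, and ranks 2 and 5 do.

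The number of called features depended strongly on the libraries that enter the fit. Without sham replicates 1, 2 and 3 the count was 5, 5 and 0, and without 6 h replicates 1, 2 and 3 it was 0, 0 and 185. Libraries outside the comparison act through the shared spread. The count was 797 without 12 h replicate 3, which has the highest library factor (2.67), 186 without 12 h replicate 2, 25 without 12 h replicate 1, 30 and 12 without 1 h replicates 2 and 3, and 10 without 72 h replicate 1. With the 6 libraries of the comparison as the only ones in the fit, limma called 514 features (359 higher, 155 lower), among them 52 of the 54.

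The 54 were also followed through the other tests. Without sham replicates 1, 2 and 3 the calls held 2, 5 and 0 of them, and without 6 h replicates 1, 2 and 3 they held 0, 0 and 48. edgeR's quasi-likelihood test on the recovered reads called 66 features (0.658%) and 52 of the 54. DESeq2 called 657 (6.46%) and all 54. The direction of all 54 held in both, but these tests use the same reads and are not independent support. All 54 were also called in a fit that adjusted for the log2 library factor, among 791 (7.89%). Called in all of these, and in the fit to the 6 libraries alone, were 50 features, 37 higher and 13 lower. On the scale of equal totals outside the dominant features, 77 were called (0.768%), 64 higher and 13 lower, of which 26 were among the 54. The share of rises among the calls was 83.1% on that scale against 70.4% on the deposited one.

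**Figure D5:**
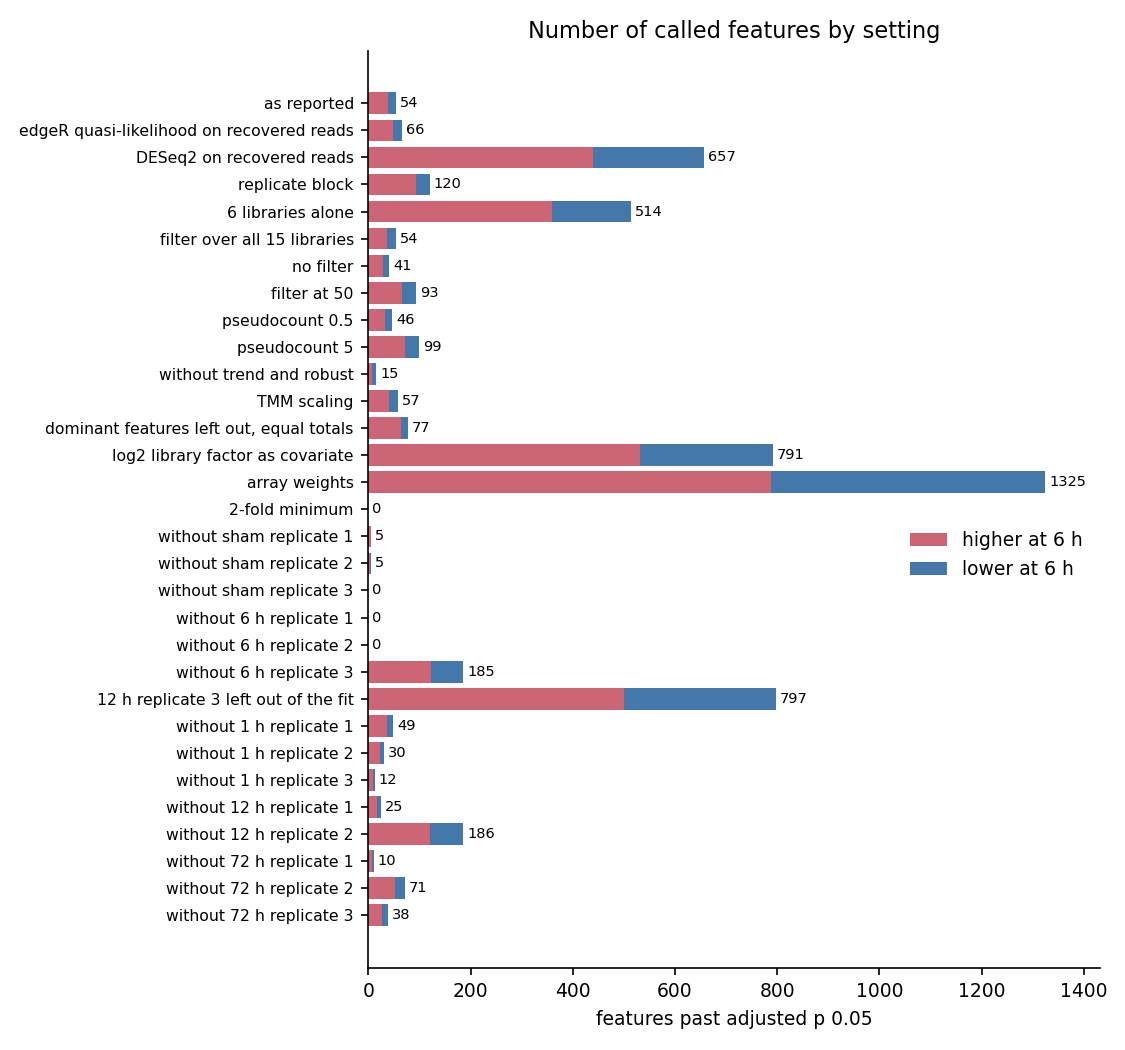
Number of features past an adjusted p of 0.05 (horizontal axis) under the reported setting and 30 others (vertical axis), divided into higher and lower at 6 h. The count runs from 0 to 1325, and rises outnumber falls in every setting with calls but 1, limma without trend and robust (7 higher, 8 lower).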

How the data were processed

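The authors deposited normalised read counts per feature for 15 whole blood libraries, a signal made by dividing reads by 1 factor per library. This was worked out from the deposited values, of which 100% were within 0.01 of a whole multiple of 1 step per library, a step close to 1 in sham replicate 1. Per the labels' protocols, PAXgene blood RNA (1 ug) was used with an NEBNext Ultra kit and sequenced as pairs of 150 bp. The submitters' processing notes list Bowtie 0.12.2 and the build Rnor_6.0 but not what each was used for. Counter, strand setting and annotation were not given in the sources used here. Because of this, reads of overlapping or near-identical genes cannot be told apart.

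Every feature that reached 10 in 3 or more of the 6 sham and 6 h libraries was tested with limma 3.58.1 (R 4.3.3, trend and robust) on log2(value + 1), with all 15 libraries and 5 groups in 1 fit, two-sided, with Benjamini-Hochberg adjustment. edgeR 4.0.16 and DESeq2 1.42.0 on the recovered reads were alternatives, beside other filters, pseudocounts, scalings, weights, the replicate number as a block and each library left out. Named are the 2 largest called rises and 2 largest called falls. Features described without an ID were picked by rank after their values were seen. The 32 gene lists and the cell type markers could not be run, because 0 IDs matched a symbol (0 lists tested). Members, lists and alternatives were chosen with earlier results of these data known. Circular RNA was not analysed here.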

Additional observations from a re-analysis of the deposited data

How the results depend on the processing

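All 54 called features kept their direction under every alternative in which they were tested. This outcome was largely fixed, because their groups did not overlap and many alternatives leave the difference itself unchanged. The number of calls moved. It was 120 with the replicate block, 514 with the 6 libraries alone, 657 in DESeq2, 791 with the log2 library factor as covariate, 797 without 12 h replicate 3 and 1325 with array weights. It was 93 with a filter at 50, 99 with a pseudocount of 5 and 15 without the trend and robust options. A limma test against a 2-fold minimum called 0 (255 at unadjusted p under 0.05). Leaving out 1 other library gave 0 to 186, and the fits with 0 calls had 1152 to 1354 features at unadjusted p under 0.05. Differences had a median SE of 0.482 as reported, of 0.530 to 0.552 without any 1 sham or 6 h library, 0.415 without 12 h replicate 3 and 0.389 with the 6 libraries alone, and the cause of the shifts was not tested. The count stayed within 1.5 times in edgeR (66), with TMM scaling (57), with equal totals (77), with a pseudocount of 0.5 (46), without a filter (41) and with the filter over all 15 libraries (54).

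The replicate numbers do not pair the samples by the labels. Deviations of same-numbered sham and 6 h libraries correlated by 0.0579, -0.00767 and 0.260, and not every library correlated best with its own number. Under the block all 54 were among the 120. Over 29 or 30 alternatives the adjusted p, highest in each case in the test against a 2-fold minimum, ran from 0.000544 to 0.530 for ENSRNOG00000046973, 2.66e-07 to 0.328 for MSTRG.7821, 0.00415 to 0.530 for MSTRG.1871 and 0.00244 to 0.530 for MSTRG.4688. They passed in 14, 24, 15 and 18 of these. The share differences of ranks 1, 3 and 4 kept their direction without any 1 library, which was fixed in advance because the groups do not overlap.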

Other observations

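Some features were absent in some libraries and well covered in others, for some of them within a group. Of the features tested, 29 had no reads in at least 1 of the 6 libraries and a normalised read count of at least 100 in another. Of these 22 were assembled models, and 1 of the 29 was called, against 0.539% of all features tested. Within the sham group alone this held for 7 features, all assembled, and within 6 h for 12, of which 11 were assembled. Of all 10025 features tested 2036 were assembled, and in the upper band of abundance 38.2% were. The difference between the classes was not tested here.

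The largest fall that did not pass, an assembled model, had 1141, 244 and 896 in sham and 1289, 0 and 0 at 6 h (log2 difference -5.86, SE 4.30, limma adjusted p = 0.515). It had 0, 2462 and 2275 at 1 h, 0, 0 and 627 at 12 h and 2079, 1003 and 0 at 72 h. Libraries with 0 and libraries with high values thus occurred at each time after modelling.

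The largest rise that did not pass, also assembled, had 93.7, 0 and 0 in sham and 315, 538 and 483 at 6 h, without overlap (log2 difference 6.58, SE 2.23, limma adjusted p = 0.162). At 1 h it had 736, 83.4 and 338, at 12 h 3.84, 1405 and 8.23 and at 72 h 234, 78.3 and 642.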
